A study of Homo sapiens with 5 samples.

Results

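Hemidesmosomes are the junctions that fix epithelial cells to the basement membrane, and laminin-332 is the basement membrane protein they hold on to. Their core is the integrin alpha6beta4, a receptor made of the ITGA6 and ITGB4 chains. On the outside it binds laminin-332, to which LAMA3 and LAMB3 give chains. On the inside the plakins plectin (PLEC) and BPAG1 (from DST) tie it to the intermediate filaments. The transmembrane collagen XVII (COL17A1) and the tetraspanin CD151 complete the complex. In lung adenocarcinoma cells, which form no epidermis, integrin alpha6beta4 and laminin-332 are best known from studies of attachment and migration.

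The genes examined were COL17A1, ITGA6, ITGB4, LAMA3, LAMB3, DST, PLEC and CD151, a list of 8 symbols set by name. In the deposited table of 37181 entries, 7 of the 8 symbols named an entry, each exactly 1. PLEC named none. Its transcripts lie in an entry named PARP10, which also holds the transcripts of that neighbouring gene, so values for PLEC alone could not be read.

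RNA sequencing compared HCC827 cells, an EGFR-mutant human lung adenocarcinoma line labelled with an exon 19 deletion, with HCC827/GR cells made resistant to gefitinib, an inhibitor of the EGFR kinase, by rising doses for over 6 months. The resistant cells are a single derived line, and the sources used here do not state whether they are a clone or were kept in drug until harvest. Nor do they state whether replicates were separate cultures, so p-values measure only the spread between these libraries, which may be technical. There were 3 libraries of HCC827/GR cells (replicates 1, 2 and 3) and 2 of parental HCC827 cells, labelled HCC827/GS (replicates 2 and 3). Expression was given as FPKM, fragments scaled to the length of the transcript and the size of the library, which can be set side by side between genes but carries no read counts. The depth of the libraries is therefore unknown. In bulk RNA, fewer cells that express a gene and less RNA per cell cannot be told apart.

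Epithelial markers of the labelled cell type were present in both lines, at different levels, while its lung markers were below 1 FPKM in HCC827/GR cells. The summed FPKM of 8 epithelial and lung markers, led by KRT18, was 1081 to 1204 in the parental libraries and 443.6 to 574.4 in the HCC827/GR libraries. The epithelial adhesion molecule EPCAM had 79.8 ± 10.1 FPKM (SD, n = 2) in parental cells against 8.88 ± 1.75 FPKM (SD, n = 3) in the resistant cells. The lung marker NAPSA had 15.1 ± 3.44 FPKM (SD, n = 2) in parental cells against 0.591 ± 0.296 FPKM (SD, n = 3) in the resistant cells. For the lung marker NKX2-1 these values were 4.30 ± 0.422 and 0.714 ± 0.277 FPKM. The surfactant gene SFTPB was near 0 in both lines. Sums over 5 fibroblast markers were 3.19 to 3.28 FPKM in parental and 2.48 to 2.76 FPKM in HCC827/GR libraries, most of it from an entry that joins PDGFRA with FIP1L1, with COL1A2, DCN and LUM near 0. The 3 of 4 leukocyte markers with an entry summed to at most 0.112 FPKM in any of the 5 libraries. The sum over 4 endothelial markers was 3.38 to 4.44 FPKM in parental and 0.0672 to 0.108 FPKM in HCC827/GR libraries, and rested on 1 of 10 entries named PECAM1, an assembled transcript with no Ensembl identifier. The other endothelial genes CDH5, VWF and KDR were near 0 in both lines. The part of these shifts in the results that follow was not tested.

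The sequences upstream of the genes that were lower in HCC827/GR cells are shown here so that the motifs they hold can be read beside the expression values. They come from RefSeq on GRCh38.p14, 5′ to 3′ on the strand of the gene, without the bases of annotated exons, and capitals mark matches to TGANTCA (the AP-1 motif), CAGGTG (an E-box that ZEB and SNAIL factors bind), GGGCGG (the GC box) or TATAAA, each searched on both strands. For COL17A1 the 173 bases at chr10:104085958-104086130 end 78 bases before the start site, on the minus strand. For ITGA6 the 250 bases at chr2:172427086-172427335 reach the more upstream of 2 start sites, on the plus strand. LAMB3 has 3 start sites, and the 230 bases at chr1:209651395-209651624, on the minus strand, belong to the one at 209651374, chosen because they hold TGANTCA. For LAMA3 the only RefSeq window lies before a start site at 23873020, which is internal to the span of the gene, inside longer annotated transcripts. Much of that window lies in annotated exons, so only 30 bases around each TGANTCA match are given, at chr18:23872883-23872912 and chr18:23872939-23872968 on the plus strand. In the second of these the capitals join CACCTG and TGAGTCA, which overlap.
COL17A1: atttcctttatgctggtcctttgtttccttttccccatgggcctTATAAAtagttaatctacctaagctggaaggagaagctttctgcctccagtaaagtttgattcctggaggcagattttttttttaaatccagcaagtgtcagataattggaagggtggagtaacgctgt
ITGA6: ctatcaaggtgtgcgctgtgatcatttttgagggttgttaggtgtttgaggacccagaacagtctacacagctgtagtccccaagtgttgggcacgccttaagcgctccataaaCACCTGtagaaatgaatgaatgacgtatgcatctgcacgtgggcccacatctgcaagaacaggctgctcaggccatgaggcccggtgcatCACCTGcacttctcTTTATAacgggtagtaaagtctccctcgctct
LAMB3: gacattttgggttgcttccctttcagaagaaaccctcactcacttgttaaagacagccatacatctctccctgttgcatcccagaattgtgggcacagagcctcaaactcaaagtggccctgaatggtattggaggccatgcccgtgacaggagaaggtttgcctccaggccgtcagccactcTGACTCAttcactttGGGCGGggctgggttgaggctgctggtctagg
LAMA3, upper match: tctggcacaggcTGACTCAtgtgtgaagtt
LAMA3, lower match: gccttcctCACCTGAGTCAggcaggcccgg

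RefSeq windows were searched for 5 of the genes, 10 windows of 250 bases in all because ITGA6, LAMB3 and DST have several start sites. Any window on chromosome 8, where PLEC lies, was left out of these 10. TGANTCA occurred in 2 of the 10, beginning 125 and 69 bases before this internal LAMA3 start and 67 bases before the LAMB3 start, whereas 6.57% of the 35116 RefSeq windows of the same length held it. CAGGTG occurred in 3 of the 10, belonging to ITGA6, LAMA3 and LAMB3, against 17.5% of all windows. GGGCGG occurred in 6 of the 10 against 42.6%, and TATAAA in 2 of the 10 against 10.7%. Among the 6 windows with GGGCGG, 2 are overlapping LAMB3 windows that hold the same site, so these windows are not independent. COL17A1 held only TATAAA, beginning 206 bases before its start. A match describes letters and does not show that a factor binds there.

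Across the table, the 16189 entries whose mean reached 0.5 FPKM were compared on log2(FPKM + 1) with limma, a linear model that shares the estimate of the spread between genes. An entry was called when its fold change was at least 2 or at most 0.5 with an unadjusted p under 0.05. These are the thresholds the study used, applied here to FPKM + 1, which shrinks the fold change of low genes. The Benjamini-Hochberg adjusted p over all 16189 entries is given beside each call. By this rule 6.94% of entries were called, 3.97% as lower and 2.96% as higher in HCC827/GR cells. An adjusted p under 0.05 was reached by 11.0%. All 7 genes passed the filter on low values. Of these, 2 were called lower (COL17A1 and LAMB3), 0 were called higher and 5 were not called. At an adjusted p under 0.05, 4 were lower (COL17A1, LAMA3, LAMB3 and ITGA6), against 5.71% of all entries, and 0 were higher, against 5.26%. The count of 4 fell to 0 in a Ballgown-style model, a linear model of each gene alone with library size as a covariate, where 13 of all entries reached an adjusted p under 0.05. For 6 of the 7 genes the parental and HCC827/GR values lay apart without overlap, against 46.3% of all entries. The median log2 fold change of the 7 was -0.64, beside 0.0014 over all entries tested.

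**Figure D1:**
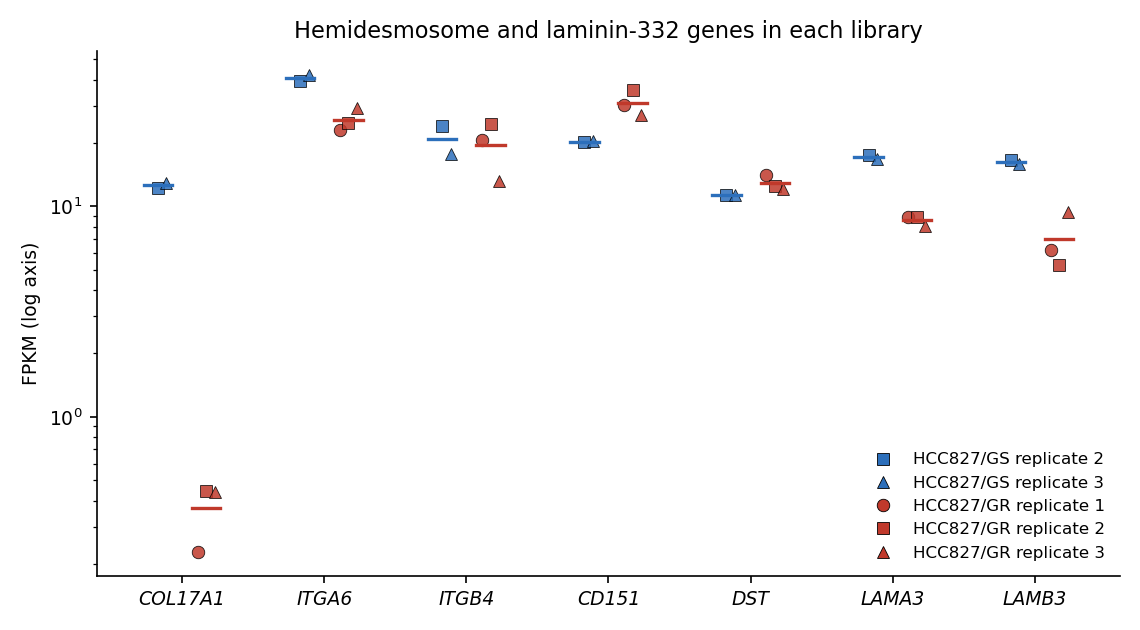
FPKM on a log axis of the 7 hemidesmosome and laminin-332 genes with an entry, in each library; points are libraries, shapes give the replicate number and horizontal lines the group means. COL17A1 separates the groups most widely, with 12.2 and 13.0 FPKM in parental libraries and at most 0.443 FPKM in HCC827/GR libraries, while the ITGB4 values of the groups overlap.

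COL17A1 encodes collagen XVII, also known as BP180, the transmembrane collagen that joins the cytoplasmic plaque to the basement membrane. It lies on chromosome 10 of GRCh38 from 104031286 to 104085957, on the minus strand. The parental libraries had 12.2 and 13.0 FPKM, and HCC827/GR replicates 1, 2 and 3 had 0.229, 0.443 and 0.439 FPKM. COL17A1 was thus high in both parental libraries and below 0.5 FPKM in each HCC827/GR library. The mean in HCC827/GR cells (0.370 ± 0.123 FPKM, SD, n = 3) was 2.94% of that in parental cells (12.6 ± 0.524 FPKM, SD, n = 2), or 34.0-fold lower. The log2 fold change on log2(FPKM + 1) was -3.31 (standard error, SE, 0.12, 95% interval -3.62 to -3.01, adjusted p = 0.00157 from limma). Among the 16189 entries it ranked 26 from the lowest log2 fold change and 16 by p. The pseudocount of 1 compresses this change, and with 0.1 in its place the log2 fold change was -4.79.

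LAMA3 and LAMB3 encode the alpha3 and beta3 chains, which in the classical scheme of laminins occur in laminin-332 and, for LAMA3, a few related trimers. LAMA3 lies on chromosome 18 from 23689443 to 23956222. It had 17.6 and 16.8 FPKM in the parental libraries and 8.93, 8.92 and 8.04 FPKM in HCC827/GR replicates 1, 2 and 3. Every HCC827/GR value lay below every parental value. The mean of 8.63 ± 0.508 FPKM (SD, n = 3) was 50.2% of the parental mean of 17.2 ± 0.564 FPKM (SD, n = 2). The log2 fold change was -0.92 (SE 0.094, adjusted p = 0.0108 from limma), so LAMA3 was lower by the adjusted p and just short of the fold threshold. Its adjusted p was 0.0644 or 0.0532 without HCC827/GS replicate 2 or 3 and 0.0523 without HCC827/GR replicate 1, and 0.137 in the Ballgown-style model.

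LAMB3, on chromosome 1 from 209614870 to 209652466 and on the minus strand, had 16.6 and 15.9 FPKM in the parental libraries. HCC827/GR replicates 1, 2 and 3 had 6.19, 5.27 and 9.43 FPKM. The values of LAMB3 therefore spread more among HCC827/GR libraries than those of LAMA3, with replicate 3 highest, but stayed below both parental values. The mean of 6.96 ± 2.18 FPKM (SD, n = 3) was 42.9% of the parental 16.2 ± 0.452 FPKM (SD, n = 2), a log2 fold change of -1.15 (SE 0.24, adjusted p = 0.0489 from limma). Without HCC827/GR replicate 2 the log2 fold change was -0.99 (adjusted p = 0.103 from limma), which ends the call. The adjusted p was 0.137 without HCC827/GR replicate 1. Without HCC827/GS replicate 2 or 3 the log2 fold change was -1.12 or -1.18. With all 5 libraries, the adjusted p from limma was 0.0552 with a pseudocount of 0.1 and 0.0549 with median-ratio scaling. It was 0.0925 with no filter and 0.0533 when limma was fitted without the trend. The adjusted p was under 0.05 in 5 of 15 alternatives. Among these 5 is the ratio of mean FPKM, which keeps the p of the main fit and is no separate test of it.

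Within each library LAMA3 and LAMB3 were set against the other laminin chains of the same type, a comparison chosen after the values were seen. FPKM is per length, and scaling between libraries cancels in such shares. The LAMB2 entry, one of the beta chains, also joins transcripts of USP19. LAMB3 made up 28.5% and 27.5% of the FPKM of the beta chains in the parental libraries and 11.0%, 8.76% and 16.0% in HCC827/GR replicates 1, 2 and 3. LAMA3 made up 30.2% and 32.2% of the alpha chains in the parental libraries and 26.9%, 23.4% and 26.5% in the HCC827/GR libraries. Both shares were lower in every HCC827/GR library (two-sided exact permutation p = 0.1 for each, the lowest that 3 against 2 libraries can give). The mean difference was -16.1 percentage points for LAMB3 and -5.63 for LAMA3. LAMA5, the other abundant alpha chain, was also lower in HCC827/GR cells, at 25.1 ± 3.55 FPKM (SD, n = 3) against 37.6 ± 3.79 FPKM (SD, n = 2), with a log2 fold change of -0.57 (adjusted p = 0.0864 from limma) that did not pass. LAMB1 and LAMC1, chains of the widespread laminins, differed by 0.28 and 0.13 on the log2 scale, with adjusted p of 0.156 and 0.478 from limma, and did not pass either.

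**Figure D2:**
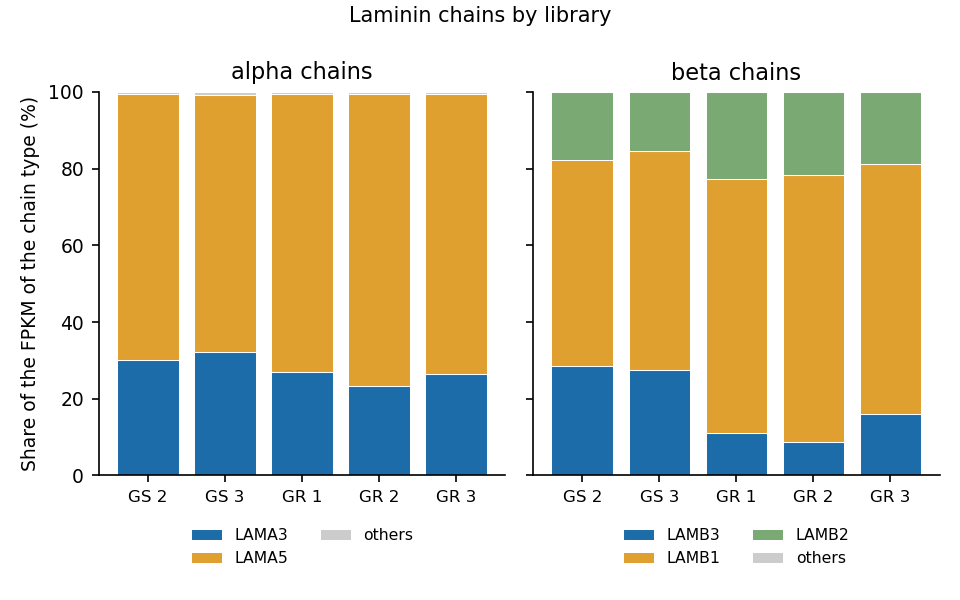
Share of each laminin chain in the summed FPKM of its chain type, in percent, for parental (GS) and HCC827/GR (GR) libraries; bars are single libraries and the panels are alpha and beta chains. The blue part, LAMA3 or LAMB3, is smaller in each HCC827/GR library than in each parental library, with a mean difference of -5.63 percentage points for LAMA3 and -16.1 for LAMB3.

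ITGA6 encodes the alpha6 chain, which pairs with beta4 in hemidesmosomes and with beta1 elsewhere. It lies on chromosome 2 from 172427354 to 172506282 and had the highest level of the 7 genes in parental cells. The parental libraries had 39.2 and 42.2 FPKM, and HCC827/GR replicates 1, 2 and 3 had 23.2, 24.9 and 29.4 FPKM. All HCC827/GR values lay below the parental values. The mean of 25.8 ± 3.25 FPKM (SD, n = 3) was 63.4% of the parental 40.7 ± 2.12 FPKM (SD, n = 2), and the log2 fold change was -0.64 (SE 0.13, adjusted p = 0.0482 from limma), short of the fold threshold. The adjusted p held under 0.05 in 5 of 15 alternatives. Among these 5 is the ratio of mean FPKM, which keeps the p of the main fit and is no separate test of it. The adjusted p was 0.0321 with quantile normalization and 0.156 with the replicate as a block, both from limma. It was above 0.05 when any HCC827/GR replicate was left out (0.127, 0.135 and 0.0522 for replicates 1, 2 and 3). Without HCC827/GS replicate 2 or 3 the log2 fold change was -0.70 or -0.59.

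ITGB4, the beta4 chain with the long cytoplasmic tail that anchors plectin, lies on chromosome 17 from 75721328 to 75757818. It had 24.1 and 17.8 FPKM in the parental libraries and 20.6, 24.6 and 13.2 FPKM in HCC827/GR replicates 1, 2 and 3. The groups overlapped, with the highest and the lowest value of all 5 libraries both among HCC827/GR cells. The log2 fold change was -0.13 (SE 0.297, adjusted p = 0.835 from limma), and its 95% interval ran from -0.90 to 0.65, so neither a fall nor a rise within that interval was detectable with these libraries. Its sign turned without HCC827/GR replicate 3 (0.12) or HCC827/GS replicate 2 (0.083).

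Because alpha6 and beta4 form a dimer, their FPKM were compared within each library. The log2 ratio of ITGA6 to ITGB4 was 0.71 and 1.25 in the parental libraries and 0.17, 0.015 and 1.16 in HCC827/GR replicates 1, 2 and 3. The groups overlapped (difference -0.53, two-sided exact permutation p = 0.3), and the difference ran from -0.26 without HCC827/GS replicate 3 to -0.89 without HCC827/GR replicate 3. The log2 ratio of ITGA6 to ITGB1 was -1.44 and -1.40 in the parental libraries and -2.43, -2.28 and -2.16 in the HCC827/GR libraries, a difference of -0.87 with no overlap (two-sided exact permutation p = 0.1, again the lowest possible). ITGB1 itself, the common beta chain, had 125.5 ± 5.17 FPKM (SD, n = 3) in the resistant cells and 108.9 ± 3.83 FPKM (SD, n = 2) in parental cells, with a log2 fold change of 0.20 (adjusted p = 0.249 from limma). For the laminin chains, the log2 ratio of LAMA3 to LAMB3 was 0.081 ± 0.0073 (SD, n = 2) in parental cells and 0.35 ± 0.52 (SD, n = 3) in HCC827/GR cells. It did not separate the groups (two-sided exact permutation p = 0.6), and the difference of 0.27 ran from 0.069 without HCC827/GR replicate 2 to 0.56 without HCC827/GR replicate 3.

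**Figure D3:**
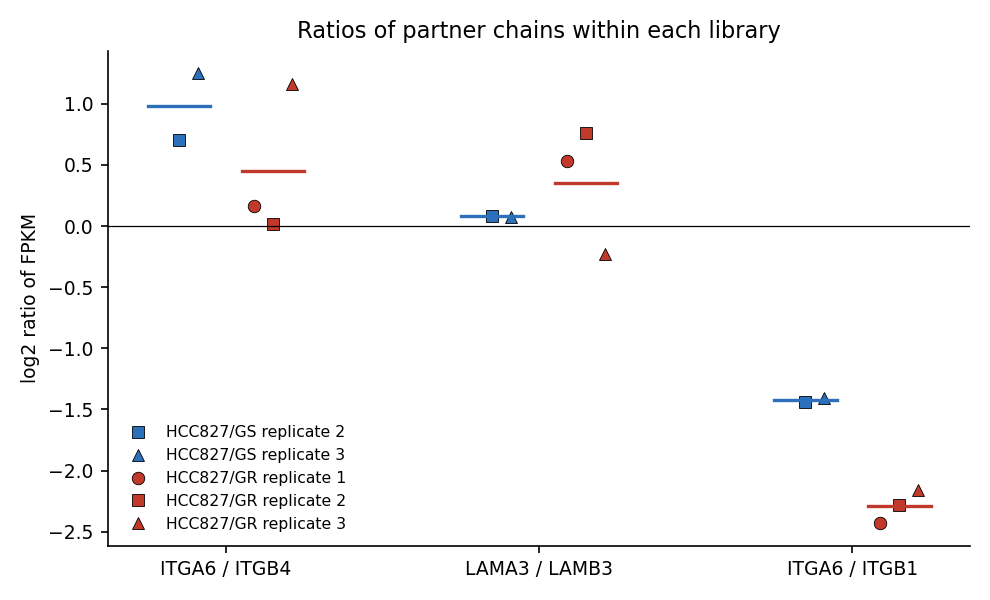
Log2 ratio of the FPKM of partner chains within each library for parental (GS) and HCC827/GR (GR) cells; points are libraries, shapes give the replicate number and horizontal lines the group means. ITGA6 over ITGB1 separates the groups, from -1.44 and -1.40 to between -2.43 and -2.16, while the other ratios overlap.

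CD151, a tetraspanin that binds the laminin-binding integrins and steadies hemidesmosomes, was the member with the highest values in HCC827/GR cells relative to parental cells. It lies on chromosome 11 from 832843 to 839831. The parental libraries had 20.1 and 20.4 FPKM and HCC827/GR replicates 1, 2 and 3 had 30.2, 35.8 and 27.1 FPKM. The groups did not overlap. The mean of 31.0 ± 4.40 FPKM (SD, n = 3) was 1.53 times the parental 20.3 ± 0.209 FPKM (SD, n = 2), and the log2 fold change of 0.58 (SE 0.14, adjusted p = 0.0706 from limma) passed neither the fold threshold nor an adjusted p of 0.05.

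DST encodes dystonin, whose epithelial form is BPAG1e, a plakin of the hemidesmosomal plaque, and whose other forms serve neurons and muscle. It lies on chromosome 6 from 56457987 to 56954628, on the minus strand. The table gives 1 value for the whole gene, in an entry of 30 Ensembl and 18 assembled transcripts, so the epithelial form could not be read by itself. The parental libraries had 11.3 and 11.4 FPKM, and HCC827/GR replicates 1, 2 and 3 had 14.0, 12.5 and 12.0 FPKM. The HCC827/GR values were all slightly higher. The log2 fold change was 0.17 (SE 0.10, 95% interval -0.099 to 0.43, adjusted p = 0.366 from limma) and did not pass.

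For PLEC, the entry that joins its transcripts with those of PARP10 had 14.5 and 22.0 FPKM in the parental libraries and 21.1, 18.5 and 21.7 FPKM in HCC827/GR replicates 1, 2 and 3. The groups overlapped, and the joint value cannot be divided between the genes.

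The order of the levels differed between the cell lines. In parental cells ITGA6 came first, followed by ITGB4, CD151, LAMA3, LAMB3, COL17A1 and DST, and the ranges of ITGB4 and CD151 overlapped while the other neighbours were apart by their ranges over 2 libraries. In HCC827/GR cells the order was CD151, ITGA6, ITGB4, DST, LAMA3, LAMB3 and COL17A1. There the ranges of CD151 and ITGA6, of ITGA6 and ITGB4, of ITGB4 and DST, and of LAMA3 and LAMB3 overlapped, whereas COL17A1 lay apart from LAMB3. Summed over the 7 genes, the level was 141.0 and 137.5 FPKM in the parental libraries and 103.4, 112.4 and 99.6 FPKM in HCC827/GR replicates 1, 2 and 3.

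The other genes of the same structures were taken from 6 lists of 62 genes, of which 42 could be tested. Of these, 7 were called higher, 7 lower and 28 were not called, beside 2.96% higher and 3.97% lower over all entries. At an adjusted p under 0.05, 7 were higher and 9 lower, beside 5.26% higher and 5.71% lower over all entries. Their median log2 fold change was 0.18. The lists covered the other laminin chains, basement membrane partners, other integrin subunits with their kindlins, other plakins, filament proteins, and regulators and proteases. Of the 9 other laminin chains listed, 4 were tested and 0 were called in either direction by limma or the Ballgown-style model. At an unadjusted p under 0.05 from limma the count was 3 (LAMA5, LAMB1 and LAMB2). At least 3921 of all 16189 entries passed that threshold, so this count does not set these chains apart.

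**Figure D4:**
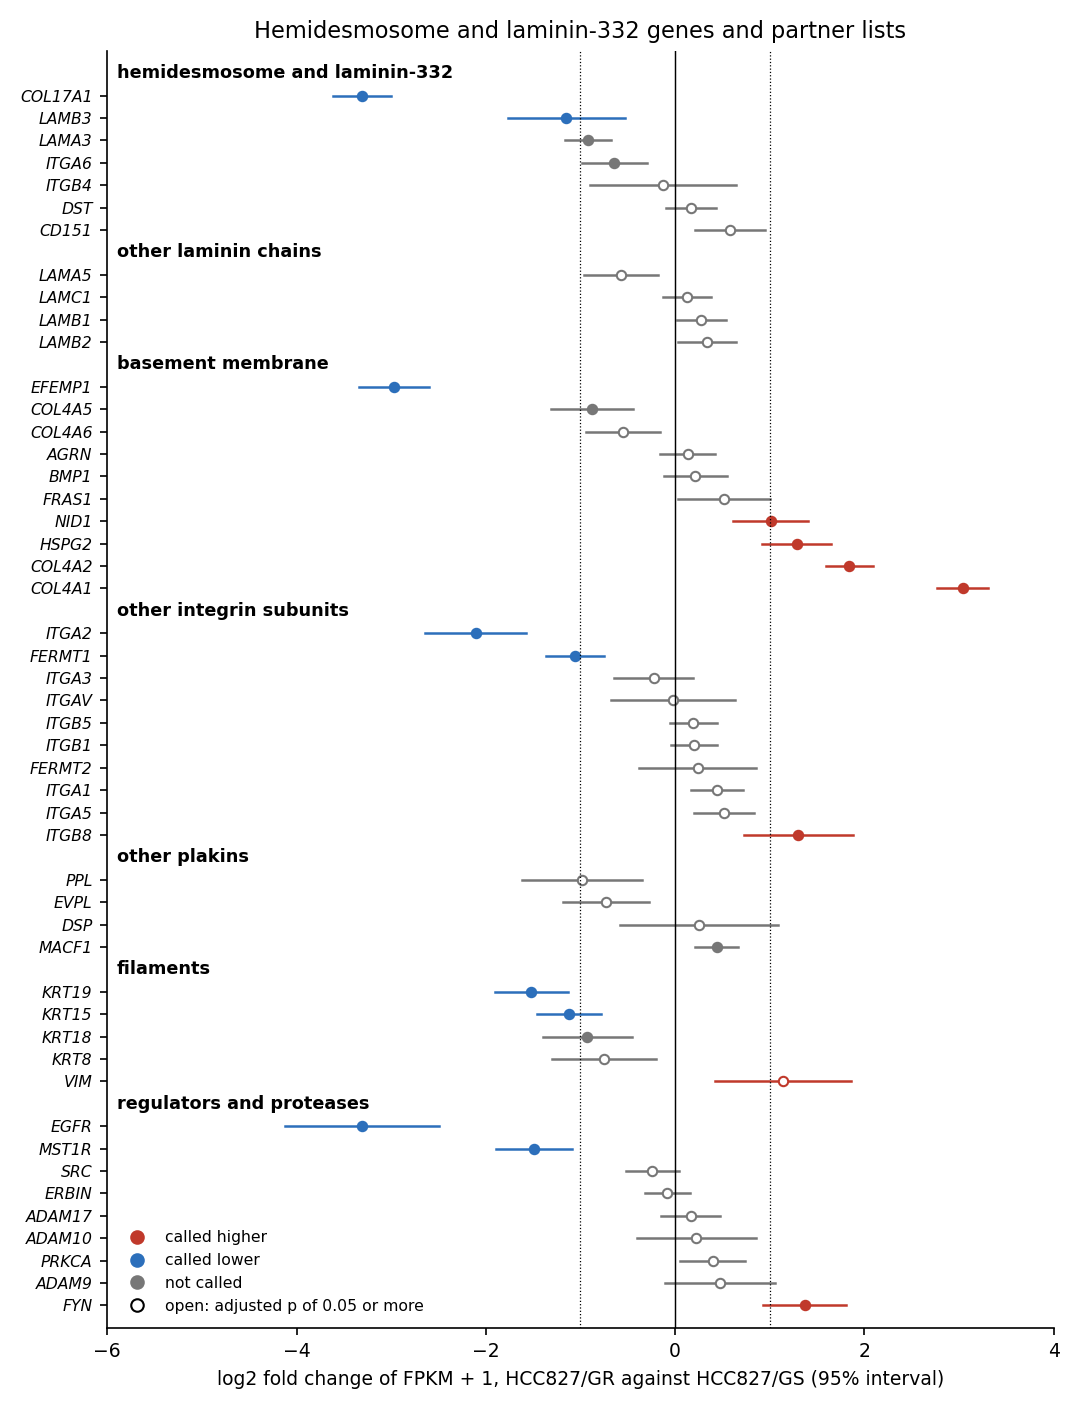
Log2 fold change of FPKM + 1 in HCC827/GR against parental cells, with 95% intervals from limma, for the 7 hemidesmosome and laminin-332 genes and the tested genes of the 6 lists; red and blue mark genes called higher and lower, grey marks genes not called, open points have an adjusted p of 0.05 or more and dotted lines mark a 2-fold change. COL17A1 and EGFR, both at -3.31, stand at one end and COL4A1 at 3.04 at the other.

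Among basement membrane partners, 10 of 16 were tested, of which 4 were called higher and 1 lower. The count of 1 was 3 with a pseudocount of 0.1 or the ratio of mean FPKM and 2 without HCC827/GS replicate 3. COL4A1 and COL4A2, the chains of the most common collagen IV, rose by 3.04 (adjusted p = 0.00157) and 1.84 (adjusted p = 0.00248) on the log2 scale, both from limma. HSPG2, the proteoglycan perlecan, rose by 1.29 on the same scale (adjusted p = 0.0117 from limma) and NID1, the linker nidogen-1, by 1.01 (adjusted p = 0.0241 from limma). The HCC827/GS replicates differed for NID1, whose log2 fold change fell short of the fold threshold without HCC827/GS replicate 2 (0.82) or HCC827/GR replicate 1 (0.98) or 3 (0.97). EFEMP1, a fibulin, went the other way, from 19.4 ± 3.23 FPKM (SD, n = 2) in parental cells to 1.59 ± 0.209 FPKM (SD, n = 3), a log2 fold change of -2.97 (adjusted p = 0.00234 from limma). COL4A5, a chain of another collagen IV, was lower by the adjusted p (0.0407 from limma). Its log2 fold change of -0.88 on log2(FPKM + 1) was short of the fold threshold. Without the pseudocount it was past it, with a mean FPKM in HCC827/GR cells of 45.6% of the parental mean. Collagen VII (COL7A1), which forms the anchoring fibrils under hemidesmosomes, could not be read alone, since its transcripts share an entry with PFKFB4 and UCN2.

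Among other integrin subunits and their kindlins, 10 of 12 were tested, with 1 called higher and 2 lower. ITGA2, the alpha chain of a collagen and laminin receptor, fell from 12.8 ± 3.80 FPKM (SD, n = 2) to 2.16 ± 0.326 FPKM (SD, n = 3), a log2 fold change of -2.11 (adjusted p = 0.0100 from limma). FERMT1, the epithelial kindlin, fell by 1.06 on the log2 scale (adjusted p = 0.0122 from limma), and ITGB8 rose by 1.30 (adjusted p = 0.0309 from limma). The call of ITGB8 ended in the Ballgown-style model, and its adjusted p was 0.0909, 0.131 and 0.140 without HCC827/GR replicate 1, HCC827/GS replicate 2 and HCC827/GS replicate 3. ITGA3, the alpha chain of the other main receptor for laminin-332, had 74.5 ± 9.50 FPKM (SD, n = 2) in parental cells against 63.8 ± 9.07 FPKM (SD, n = 3) in the resistant cells, and the groups overlapped.

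Of the other plakins, 4 of 5 were tested and 0 were called in either direction by limma, or by the Ballgown-style model. In 5 of the 15 alternatives, without HCC827/GR replicate 2 or HCC827/GS replicate 3 among them, 1 was called lower. At an unadjusted p under 0.05 from limma the count was 3, a threshold that at least 3921 of all 16189 entries passed. These were MACF1, the plakin closest to DST, with a log2 fold change of 0.44 (adjusted p = 0.0429 from limma), and EVPL and PPL. EVPL had -0.73 (adjusted p = 0.0667) and PPL -0.98 (adjusted p = 0.0736), both from limma. Of the filament proteins that plakins hold, 5 of 9 were tested, with 1 called higher and 2 lower. KRT18 had the highest level, with a mean of 487.5 FPKM in parental and 255.4 FPKM in HCC827/GR cells. Its log2 fold change was -0.93 (adjusted p = 0.0413 from limma), short of the fold threshold. KRT8 had a log2 fold change of -0.75 (adjusted p = 0.101 from limma) and was not called. KRT19 fell by 1.52 on the log2 scale (adjusted p = 0.00996 from limma) and KRT15 by 1.12 (adjusted p = 0.0130 from limma), the latter read through an entry found by its transcripts. KRT15 is low, and its log2 fold change was -2.13 with a pseudocount of 0.1. VIM, the mesenchymal filament protein vimentin, was called higher at 1.14, with an adjusted p of 0.0700 from limma, and its log2 fold change was 0.78 without HCC827/GS replicate 2, which ends the call. The basal keratin KRT14 had at most 0.0327 FPKM in any library, and no entry was found for its partner KRT5. Of this keratin pair, which classical hemidesmosomes anchor, KRT14 was thus near 0 and KRT5 was not analysed here.

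Among regulators and proteases, 9 of 11 were tested, with 1 called higher and 2 lower. EGFR, the target of gefitinib, whose signalling is known to loosen hemidesmosomes, fell by 3.31 on the log2 scale (adjusted p = 0.00926 from limma). MST1R, a receptor kinase that associates with alpha6beta4, fell by 1.49 (adjusted p = 0.0109 from limma), and FYN, a SRC family kinase, rose by 1.37 (adjusted p = 0.0147 from limma), or by 2.06 with a pseudocount of 0.1. ADAM9, ADAM10 and ADAM17, proteases that release the collagen XVII ectodomain, had log2 fold changes of 0.48, 0.22 and 0.16 and adjusted p of 0.255, 0.615 and 0.444 from limma. TP63, a regulator of basal epithelial genes, had 0.234 and 0.191 FPKM in the parental libraries and at most 0.0041 FPKM in the HCC827/GR libraries, below the level that was tested.

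The entries most like the called genes were sought by the root-mean-square distance between centred log2(FPKM + 1) values over the 5 libraries. For COL17A1 these were TMC5 (distance 0.124, log2 fold change -3.11) and FGFBP1 (distance 0.135, log2 fold change -3.07). TMC5 had 11.3 and 10.2 FPKM in the parental libraries and 0.264, 0.409 and 0.419 FPKM in HCC827/GR replicates 1, 2 and 3. For LAMB3 they were FAM186A (distance 0.0956) and ACBD4 (distance 0.103), both of which were listed at 0 in HCC827/GR replicates 1 and 2 and had at most 1.88 FPKM elsewhere. With 5 libraries in 2 groups, likeness reflects mostly the difference between the cell lines.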

How the data were processed

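RNA was sequenced from 3 libraries of HCC827/GR and 2 of parental HCC827 cells. The deposited table holds FPKM per assembled gene, which the authors made by trimming with Cutadapt, mapping with Bowtie2 and TopHat2, and assembling and quantifying with StringTie and Ballgown. The labels name hg18, while transcript identifiers matched Ensembl, so positions come from GENCODE 29 on GRCh38. The protocol in the labels describes another library type than the methods of the study, and which was used is not settled here. No read counts were recovered, so depth and counting precision are unknown. The total FPKM per library was 138854 to 167722. The table also holds the authors' fold changes and p-values and 1 FPKM column that matched no sample, none of which were used.

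Each symbol was read from its entry with the highest mean. Entries whose mean reached 0.5 FPKM were fitted on log2(FPKM + 1) with limma 3.58.1 (trend, two-sided) in R 4.3.3, and p-values were adjusted by Benjamini-Hochberg over all of them. Ratios and shares were compared by exact permutation in Python 3.11.15 with scipy 1.17.1. The fit was tested on simulated data. Members, lists and tests were chosen with earlier results of these data known. All members were named. From the lists, genes past the thresholds were named (at most 6 per list), with COL7A1, ITGB1, ITGA3, KRT5, KRT14, VIM, TP63 and EGFR whatever their values, and for each called member the 2 most similar entries. LAMA5, LAMB1, LAMC1, MACF1, EVPL, PPL and the ADAM genes, and LAMB2, COL4A5, ERBIN, KRT8 and KRT18, were added after their values were seen. So were the values of the markers NAPSA and NKX2-1. Some results are not reported here. AGRN, KRT15 and the lung marker NAPSA were read through their transcripts. The entry of the lung marker NKX2-1 also joins transcripts of SFTA3. The 15 alternatives covered the pseudocount, filter, scaling, model, replicate block, summed entries, the ratio of mean FPKM and leaving out each library. The ratio of mean FPKM changes only the fold change and keeps the p of the main fit.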

Additional observations from a re-analysis of the deposited data

How the results depend on the processing

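Of the 7 genes tested, COL17A1 stayed called lower in all 15 alternatives, and ITGA6, LAMA3, DST and CD151 kept their direction and stayed not called, since their fold changes stayed short of the threshold. By p alone, DST passed 0.05 in the Ballgown-style model, and CD151 no longer did there or without HCC827/GS replicate 2. The count of genes lower at an adjusted p under 0.05, 4 as reported, was 0 in the Ballgown-style model, where 13 of all entries reached it. It was 1, 2 and 3 without HCC827/GR replicates 1, 2 and 3. There 432, 685 and 884 of all entries reached it, against 1775 in the main fit. The count was 2 with no filter (1261 of all entries), median-ratio scaling (1746) or limma without the trend (1683). With a pseudocount of 0.1 it was 3 (1730 of all entries). LAMB3 lost its call in the Ballgown-style model (log2 fold change -1.33, unadjusted p = 0.0515 from that model), and its values ranged from -1.36 to -0.99 when 1 library was left out. ITGB4, which was not called, turned to 0.13 in the Ballgown-style model and ranged from -0.33 to 0.12 with 1 library left out. The cause was not tested. The numbers of entries called higher and lower, 480 and 643, became 860 and 1024 with a pseudocount of 0.1 and 919 and 1201 with the ratio of mean FPKM, both of which compress low genes less, and ranged from 509 to 622 and from 554 to 744 with 1 library left out. Of the genes in the 6 lists, 4 were called higher in the Ballgown-style model against 7. Deviations of same-numbered libraries from their group means had correlations of 0.0328 and 0.0147 for replicates 2 and 3. With 2 parental libraries, whose deviations mirror each other, these values are not independent. They cannot decide whether a replicate number marks a shared batch. With the replicate as a block, 506 entries were higher and 709 lower by fold and p, but 0 of all entries reached an adjusted p under 0.05, nor did any of the 7 genes. With this block COL17A1 had -3.24 (adjusted p = 0.124 from limma), LAMA3 -0.94 (0.135), ITGA6 -0.57 (0.156), LAMB3 -1.09 (0.194), ITGB4 -0.19, DST 0.11 and CD151 0.59. Scaling by median ratios or quantiles moved the median of all entries by at most 0.015. FPKM without counts leaves the precision of low values, such as COL17A1 in HCC827/GR cells, unknown.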

Other observations

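ERBIN, a scaffold protein that binds the beta4 tail and belongs to the list of regulators, had 26.9 and 25.4 FPKM in the parental libraries and 24.0, 23.8 and 25.9 FPKM in HCC827/GR replicates 1, 2 and 3. The groups overlapped, with a log2 fold change of -0.084 (adjusted p = 0.615 from limma).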
